A study of Mus musculus with 6 samples.

Results

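The 34 genes described here encode proteins of meiosis, and they were followed in cultured mouse spermatogonia, cells that divide by mitosis. They were found by name in the table of raw counts, where all 34 of the 34 names are among 32285 genes. The genes were chosen by name for their known roles in meiosis, with earlier results of these data known. The cells were GS cells, germline stem cell cultures grown from mouse testis, and the labels give the model as BDF1, while the design text names C57BL/6 and 129. The mice were 3 days old by the growth protocol and 10 days old by the design text. In both groups the alleles of Cdkn1c, which encodes the cell cycle inhibitor p57, were flanked by loxP sites. The 3 p57 KO libraries have the genotype p57 flox/flox-Cre, with Cre recombinase brought in by an adenovirus, and the 3 control libraries have the genotype p57 flox/flox. RNA was taken 2 days after infection. The sources used here do not give whether control cells received a virus, which part of Cdkn1c is removed, or whether replicates were separate cultures. Each p-value is thus set against the spread of 3 libraries per group, and this spread may be purely technical.

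Meiosis makes haploid cells from diploid ones. Cohesin complexes with meiotic subunits hold sister chromatids along a chromosome axis, SPO11 cuts the DNA, and the recombinase DMC1 guides the broken ends to the homologous chromosome. The synaptonemal complex then zips the homologues together, telomeres are anchored to the nuclear envelope, and some of the breaks mature into crossovers. In the testis these proteins act in spermatocytes, after retinoic acid has started meiosis. Transcripts of some of the genes are made earlier, in spermatogonia, and complexes that contain E2F6 or MGA and MAX are known to hold down others in mitotic cells.

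The targeted gene was checked before the meiosis genes. Cdkn1c had 8.71, 9.44 and 8.51 CPM (counts scaled to library size, with TMM factors) in the p57 KO libraries, against 20.9, 21.4 and 19.9 CPM in the control libraries. The groups did not overlap, and the log2 fold change was -1.22 (standard error, SE, 0.09; edgeR adjusted p = 4.07e-09). Total counts were 15940375 to 17893671 in p57 KO and 15662833 to 16979459 in control. The spermatogonial identity of the cells was visible in 12 marker genes, which summed to 3263 to 3462 CPM in p57 KO and 3864 to 3931 CPM in control, led by Dazl, Etv5 and Ret. In p57 KO 8 of these 12 fell and 1 rose in edgeR at an adjusted p under 0.05, beside 11.6% of all tested genes in each direction. The 15 markers of fibroblasts and feeder cells were higher in p57 KO, with 1011, 1497 and 2305 CPM in replicates 1, 2 and 3, against 595, 825 and 622 CPM in control. Their median log2 fold change was 1.47, and none of these genes was at 0 in all libraries. In edgeR 3 of the 15 rose at an adjusted p under 0.05, beside 11.6% of all tested genes. At an unadjusted p under 0.05, 14 of the 15 were higher in edgeR and 0 lower. Fits with their mean level as a covariate are given below, but their part in the results cannot be fully told apart from that of the genotype. In bulk RNA, fewer cells of a type and less RNA per cell cannot be told apart. The 8 late spermatocyte markers summed to 99.2 to 102 CPM in p57 KO and 102 to 110 CPM in control, and the 8 spermatid markers to 7.12 to 8.14 CPM in p57 KO and 6.30 to 7.64 CPM in control. Only 5 of the 8 late spermatocyte and 2 of the 8 spermatid markers were tested, and none of these was called. Tbpl1 and Piwil1 led the first list, with means of 64.6 and 22.8 CPM in p57 KO and 68.4 and 23.5 CPM in control. Spaca1 and Tnp1 led the second, with 4.84 and 2.05 CPM in p57 KO and 4.68 and 1.89 CPM in control. Prm1, Prm2 and Adam2 had at most 1 count in any library, and Pgk2 had at most 9. Sertoli and Leydig cell markers summed to 30.3 to 31.7 CPM in p57 KO and 31.2 to 35.1 CPM in control. Sox9 and Wt1 led them, with means of 18.1 and 8.08 CPM in p57 KO and 17.8 and 10.2 CPM in control. Hsd3b1 was at 0 in all libraries.

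Transcripts of all 34 genes were detected in all 6 libraries, and 33 reached at least 1 CPM in each of them. The exception was Ccna1, a germ cell cyclin A that acts at the end of meiotic prophase, with 10 to 17 counts per library in p57 KO and 6 to 14 in control. Levels differed widely between the roles. To compare genes, CPM was divided by the length of exons in kilobases. On that scale 19 of the 34 lay above the median control level of the tested genes, 5.89 CPM per kilobase. The highest was Stag3, a subunit of meiotic cohesin, with 53.0 ± 0.896 CPM per kilobase in p57 KO and 59.2 ± 1.42 in control (SD, n = 3 each), a control level above that of 95.2% of tested genes. Sycp1, whose protein forms the transverse filaments of the synaptonemal complex, followed with 50.4 ± 0.169 in p57 KO and 56.3 ± 2.61 in control. All 8 synaptonemal complex genes and all 3 genes of meiotic cohesin were above the median in control, at 16.6 to 56.3 and 19.9 to 59.2 CPM per kilobase.

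Spo11, Prdm9 and Mei1, the genes chosen here for making and placing the DNA breaks, were among the lowest. Spo11, the gene of the enzyme that cuts DNA, had 1.12 ± 0.137 CPM per kilobase in p57 KO and 1.34 ± 0.104 in control, and Prdm9, which marks the sites of recombination in mice, had 0.801 ± 0.109 in p57 KO and 0.816 ± 0.196 in control. Mei1, needed for break formation, had 2.03 ± 0.311 in p57 KO and 1.99 ± 0.0908 in control. Other break formation genes, from a second list described below, were spread more widely. In control Rec114, Ankrd31 and Ccdc36 had 30.0, 14.1 and 7.01 CPM per kilobase, above the median of 5.89. Gm960 and Mei4 were below it, at 1.97 and 1.49. Low levels thus did not hold for all break genes. The telomere attachment genes Terb1 and Majin had control levels of 1.39 and 1.08 CPM per kilobase, while Terb2, from the same complex, had 5.56. The strand exchange genes split into 2 levels. Tex15, Psmc3ip, Dmc1 and Mnd1 had 24.7, 16.0, 15.7 and 11.0 CPM per kilobase in control, whereas Meiob and Spata22, whose proteins bind single-stranded DNA as partners, had 2.01 and 1.72. Among crossover genes the X-linked Tex11 had 26.3 CPM per kilobase in control, and Mlh3, Msh5, Msh4 and Hfm1 had 4.77, 2.96, 2.63 and 0.708. Exon lengths were taken from all annotated transcripts of a gene, so that a gene with long unused exons is underestimated.

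**Figure D1:**
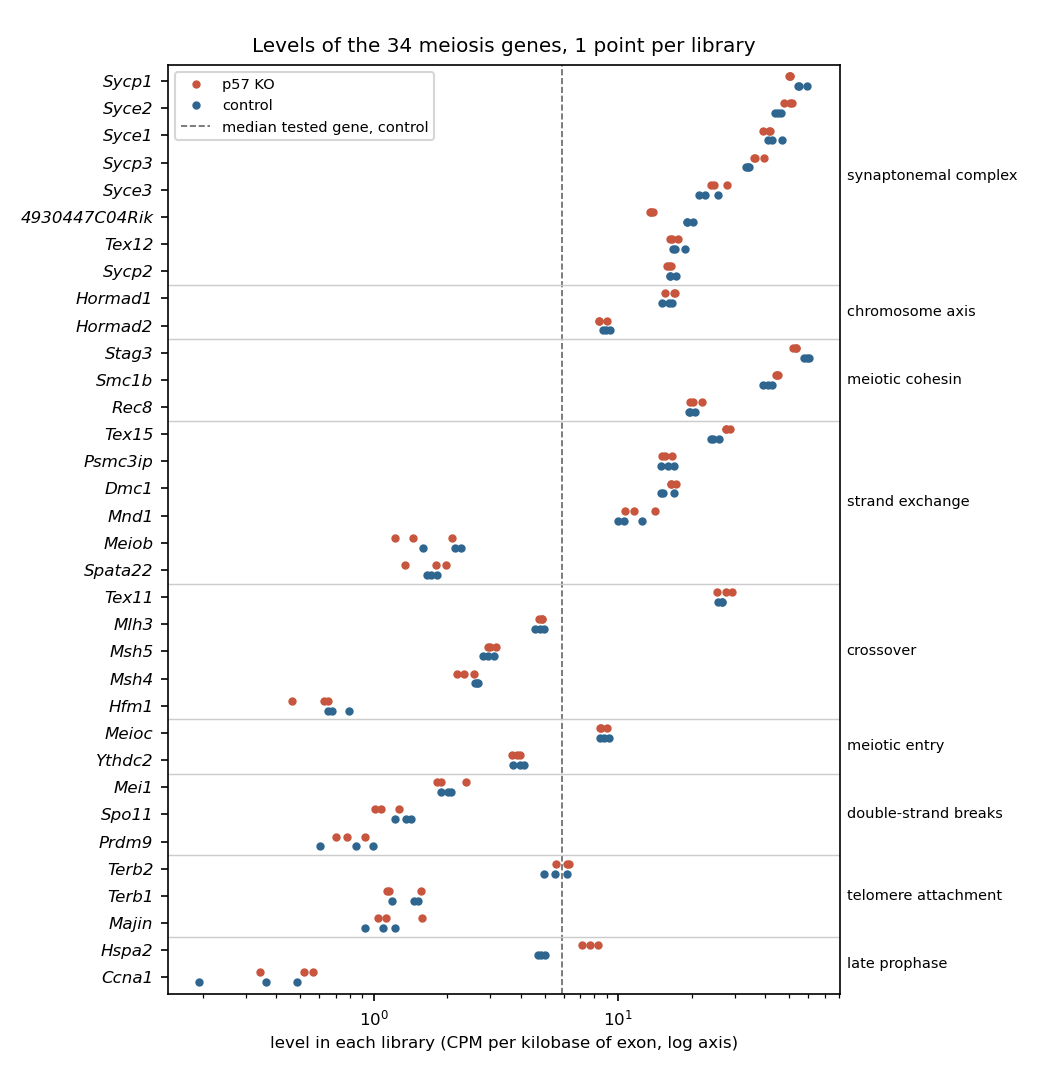
Level of each of the 34 genes in each library, in CPM per kilobase of exon on a log axis, grouped by role, with p57 KO points above control points. The synaptonemal complex and meiotic cohesin genes lie right of the dashed line at 5.89, the median of tested genes in control, and the double-strand break genes lie left of it.

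Some meiotic genes were present above the level of a mitotic counterpart. Stag3 reached 489%, 461% and 457% of the level per kilobase of Stag2, a cohesin subunit of mitotic cells, in the p57 KO libraries, against 548%, 474% and 539.6% in the control libraries, and these groups overlapped. Against Stag1, the more abundant of the 2 mitotic forms, it had 312%, 297% and 317% in p57 KO and 359.6%, 320.1% and 349.8% in control, without overlap (exact permutation p = 0.1). Smc1b, the meiotic form of the cohesin subunit SMC1, had 243%, 233% and 236% of the level of Smc1a in p57 KO, against 221%, 212% and 211% in control. The groups did not overlap, and an exact permutation test, two-sided, gave p = 0.1, which is the lowest value possible with 3 libraries a group. Rec8, the meiotic kleisin that closes the cohesin ring, stayed below its counterpart Rad21, at 18.6% to 21.1% in p57 KO and 17.1% to 18.7% in control. The DNA-binding gene Meiob and the cyclin gene Ccna1 were far below their counterparts. Meiob had 3.83% of Rpa1 in p57 KO and 4.50% in control, and Ccna1 had 1.65% of Ccna2 in p57 KO and 1.29% in control, as means over 3 libraries. Rpa1, which encodes a protein that coats single-stranded DNA, fell in p57 KO by 0.10 as log2 (adjusted p = 0.0187 in edgeR).

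**Figure D2:**
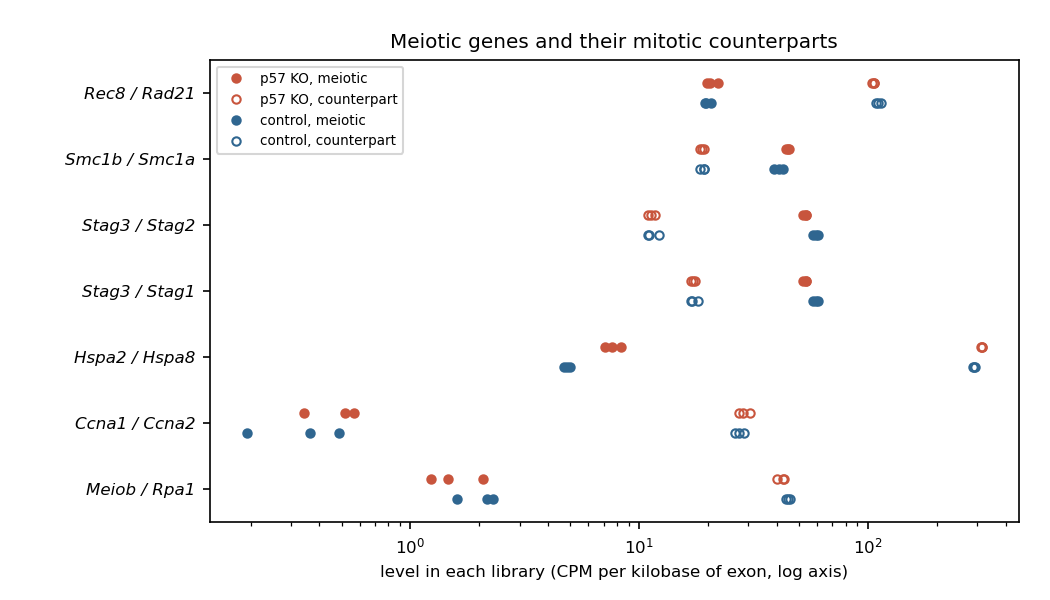
Level of meiotic genes (filled) and of their mitotic counterparts (open) in each library, in CPM per kilobase of exon on a log axis, with p57 KO points above control points. Stag3 and Smc1b lie above their counterparts, and Rec8, Hspa2, Ccna1 and Meiob lie below theirs.

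In p57 KO cells 7 of the 34 genes changed. Hspa2, Tex15, Syce2 and Smc1b rose in p57 KO, and 4930447C04Rik, Stag3 and Sycp1 fell, at an edgeR adjusted p under 0.05 over all 14814 tested genes. The 4 that rose are 11.8% of the 34, beside 11.6% of all tested genes, and the 3 that fell are 8.82%, beside 11.6% of all tested genes, so that the shares were near or under those of the background. Together the 7 are 20.6%, beside 23.3% of all tested genes. The median log2 fold change was 0.0022 over the 34 genes and -0.0019 over all tested genes. The genes together made up 1856, 1844 and 1849.6 CPM in p57 KO, against 1883, 1886 and 1851 CPM in control, and these ranges overlapped. Groups did not overlap for 10 of the 34 genes, 5 higher and 5 lower, beside 39.2% of tested genes (19.5% higher and 19.7% lower). DESeq2 and limma-voom called the same 7 genes, beside 16.5% and 22.3% of all tested genes. Against a null of at most a 1.2-fold change, edgeR called Hspa2 as higher and 4930447C04Rik as lower, beside 2.79% and 0.371% of all tested genes. With the mean level of the fibroblast and feeder markers as a covariate, Hspa2 rose and 4930447C04Rik and Sycp1 fell, beside 1.73% and 1.17% of all tested genes, while the log2 fold changes of Tex15, Syce2, Smc1b and Stag3 were 0.17, 0.24, 0.12 and -0.13 with adjusted p from 0.0542 to 0.347. That score itself was higher in p57 KO, so it and the genotype cannot be fully told apart. Without p57 KO replicate 3, in which the fibroblast markers were highest, the same 7 genes were called, beside 18.2% of all tested genes.

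**Figure D3:**
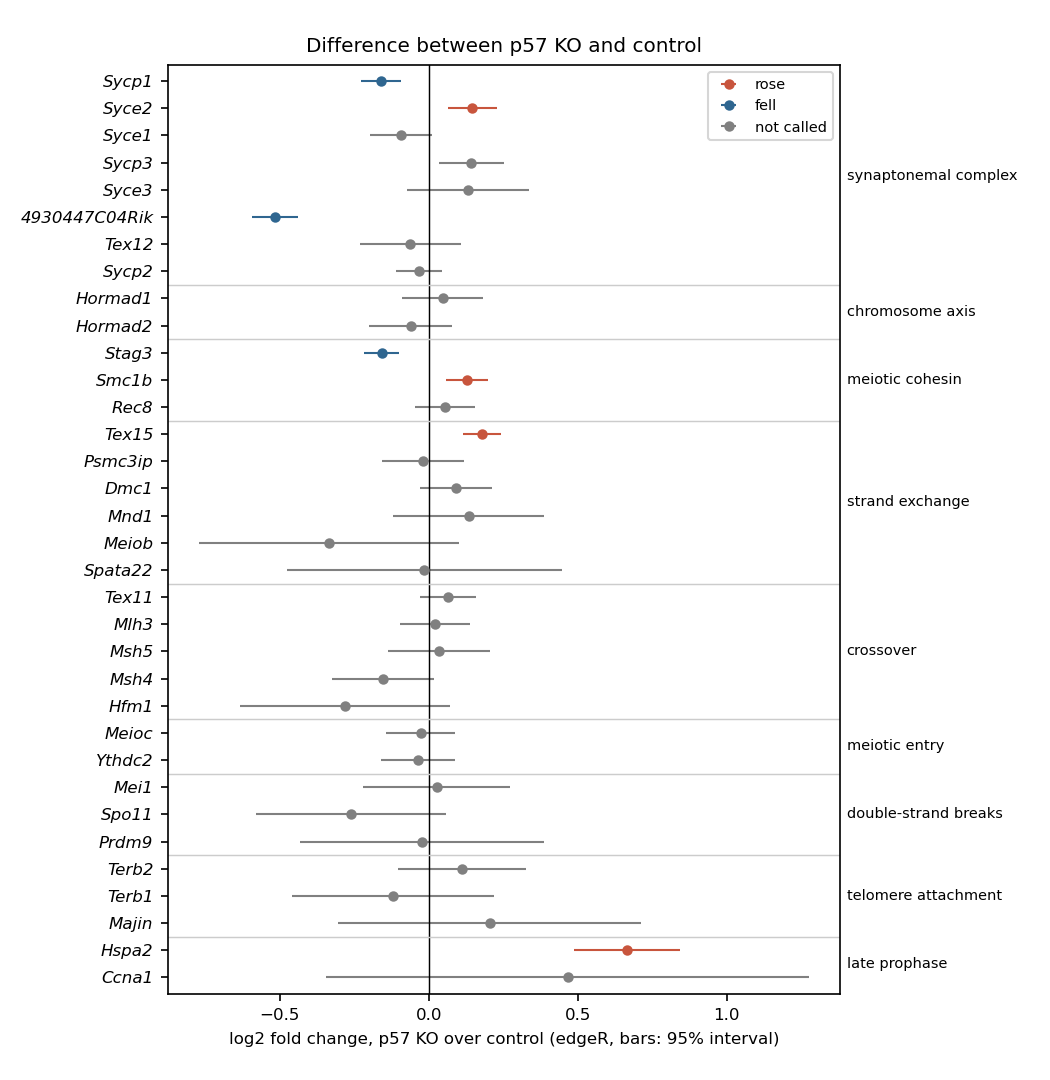
Log2 fold change of each gene, p57 KO over control, from edgeR, with bars for the 95% interval, grouped by role. Hspa2 at 0.66 and 4930447C04Rik at -0.52 stand apart, and the other 5 called genes lie between -0.16 and 0.18.

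Promoters of the called genes are shown because these genes moved in both directions and because E2F6 and MGA-MAX complexes bind such promoters in mitotic cells. The sequences are RefSeq windows of the build GRCm38.p6, cropped to 180 bases before and 20 bases after the annotated start, and read 5′ to 3′ along the gene. Capitals mark the letters GCGGGAA or their reverse TTCCCGC, the core that E2F proteins bind, and CACGTG, the E-box of MAX dimers, which reads alike on both strands. The 2 motifs do not overlap in these windows. For Syce2, which has 2 annotated starts, the window with more matches is given. The window of 4930447C04Rik lies inside the gene, whose 5′ end in GENCODE is at chr12:72940774. Tex15, the other called gene, had no entry.
Hspa2 (chr12:76404190-76404389, plus strand): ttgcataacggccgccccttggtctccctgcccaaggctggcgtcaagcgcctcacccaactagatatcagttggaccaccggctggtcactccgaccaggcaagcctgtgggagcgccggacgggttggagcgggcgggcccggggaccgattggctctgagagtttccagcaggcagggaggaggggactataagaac
Syce2 (chr8:84872078-84872277, plus strand): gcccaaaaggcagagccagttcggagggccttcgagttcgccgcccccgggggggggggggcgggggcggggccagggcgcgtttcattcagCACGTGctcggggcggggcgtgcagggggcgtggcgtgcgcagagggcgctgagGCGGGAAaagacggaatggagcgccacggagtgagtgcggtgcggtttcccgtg
Smc1b (chr15:85131938-85132137, minus strand): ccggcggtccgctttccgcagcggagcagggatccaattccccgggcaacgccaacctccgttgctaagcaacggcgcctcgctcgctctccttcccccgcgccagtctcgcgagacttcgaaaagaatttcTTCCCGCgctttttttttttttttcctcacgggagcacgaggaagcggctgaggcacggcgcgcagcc
4930447C04Rik (chr12:72917746-72917945, minus strand): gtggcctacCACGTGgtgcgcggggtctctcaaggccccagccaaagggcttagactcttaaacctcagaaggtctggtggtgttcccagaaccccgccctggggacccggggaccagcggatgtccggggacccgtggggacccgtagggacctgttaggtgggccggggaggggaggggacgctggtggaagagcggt
Sycp1 (chr3:102936081-102936280, minus strand): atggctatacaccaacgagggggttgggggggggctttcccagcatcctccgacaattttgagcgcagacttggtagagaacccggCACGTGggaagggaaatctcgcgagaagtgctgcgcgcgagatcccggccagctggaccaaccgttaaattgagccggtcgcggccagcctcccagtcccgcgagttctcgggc
Stag3 (chr5:138280329-138280528, plus strand): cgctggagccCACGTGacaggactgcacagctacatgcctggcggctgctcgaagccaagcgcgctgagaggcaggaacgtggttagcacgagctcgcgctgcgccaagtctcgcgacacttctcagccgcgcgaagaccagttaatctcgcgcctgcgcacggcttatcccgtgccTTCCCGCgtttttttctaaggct
The letters of the E2F core are in the stretches of Syce2, Smc1b and Stag3, those of the E-box in Syce2, Sycp1, Stag3 and 4930447C04Rik, and neither is in that of Hspa2. Genes that rose and genes that fell thus both hold each motif, but among those that rose the E-box was in Syce2 alone. The window of the other Syce2 start held neither motif. The downstream end of that window was found in a GENCODE transcript. Those of the full windows behind the printed Syce2 and Hspa2 stretches were not. In the full windows of 300 bases, 27 of the 34 genes had an entry. Spo11, Meiob, Tex11, Tex15, Ythdc2, Majin and Terb2 had none. The E2F core was in 10 of the 27 genes, or 37.0%, against 5.29% of all 27025 genes with windows, and the E-box was in 7, or 25.9%, against 8.09%. Hormad1, Sycp3 and Tex12 held both, like Stag3 and Syce2. The member windows were also richer in CpG, with a median of 20 CpG per window against 7 in all windows, and both motifs contain CG. These shares describe the letters and were not tested.

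Hspa2 had the largest rise. It encodes a testis chaperone of the HSP70 family that is needed to take apart the synaptonemal complex and to activate CDK1 at the end of meiotic prophase. It had 20.2, 21.9 and 18.8 CPM in p57 KO, against 12.4, 12.8 and 13.2 CPM in control. All 3 p57 KO libraries were above all control libraries. The mean was 159% of the control mean, and the log2 fold change was 0.66 (95% interval 0.49 to 0.84, edgeR adjusted p = 9.13e-06). It kept its call in all the fits that left out 1 library, with log2 fold changes of 0.60 to 0.72. Hspa8, the related chaperone gene of all cells, rose by 0.10 as log2 (SE 0.02, adjusted p = 0.00328 in edgeR), and Hspa2 had 2.46%, 2.64% and 2.26% of its level per kilobase in p57 KO against 1.60%, 1.67% and 1.72% in control. The sources used here do not say how reads shared between HSP70 genes were counted. The other gene of late prophase, Ccna1, had 0.631, 1.03 and 0.952 CPM in p57 KO and 0.667, 0.353 and 0.895 CPM in control. Those groups overlapped, and the log2 fold change of 0.47 had a 95% interval from -0.35 to 1.28.

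Within the synaptonemal complex 1 gene rose, 2 fell and 5 were not called. The deepest fall was that of 4930447C04Rik, which encodes SIX6OS1, a protein of the central element. Its level was 83.0, 80.5 and 81.3 CPM in p57 KO, against 114, 122 and 114 CPM in control. The p57 KO libraries lay close together and far below all control libraries, at 70.0% of the control mean (log2 fold change -0.52, 95% interval -0.59 to -0.44, edgeR adjusted p = 3.93e-09). The gene shares 192 exon bases with Six6 on the other strand, which had 0 to 7 counts per library in p57 KO and 1 to 3 in control. Syce1, whose protein binds SIX6OS1, had 60.4, 57.1 and 60.8 CPM in p57 KO and 68.2, 62.4 and 59.7 CPM in control, with overlapping groups and a log2 fold change of -0.09 (95% interval -0.20 to 0.01, edgeR adjusted p = 0.183).

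Sycp1 had 179.2, 179.7 and 178.5 CPM in p57 KO, against 196, 211 and 194 CPM in control. All p57 KO libraries were lower, at 89.5% of the control mean (log2 fold change -0.16, SE 0.03, edgeR adjusted p = 0.00113). Syce2, another central element gene, had 99.1, 102 and 93.9 CPM in p57 KO and 91.4, 86.2 and 88.6 CPM in control, without overlap. Its log2 fold change of 0.15 (SE 0.04, adjusted p = 0.0101 in edgeR) was not called when either control replicate 2 (0.12, adjusted p = 0.0664) or p57 KO replicate 2 (0.12, adjusted p = 0.0708) was left out. Gcdh overlaps Syce2 on the other strand without shared exon bases. It had 733, 841 and 850 counts in p57 KO and 492, 513 and 459 in control, and whether its reads reach the Syce2 counts was not tested. Tex12, whose protein forms a complex with SYCE2, had 16.5 to 17.9 CPM in p57 KO and 17.0 to 19.0 CPM in control. Its log2 fold change was -0.06 (95% interval -0.23 to 0.11). Sycp3, a component of the lateral elements, had 45.9, 45.4 and 50.02 CPM in p57 KO and 42.2, 43.2 and 42.8 CPM in control. These groups did not overlap, yet the gene missed the threshold (log2 fold change 0.14, SE 0.05, edgeR adjusted p = 0.0545). It passed, at 0.0411, once p57 KO replicate 1 was left out. Its exons share 660 bases with Chpt1 on the other strand. Sycp2, the partner of SYCP3, had a log2 fold change of -0.03 (95% interval -0.11 to 0.04), and Syce3 had 0.13 (-0.07 to 0.34).

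Cohesin subunits also went different ways. Stag3 had 307, 298 and 307 CPM in p57 KO, against 347, 331 and 339.7 CPM in control, with all p57 KO libraries lower. The fold change was -0.16 as log2 (SE 0.03, adjusted p = 0.000263 in edgeR). Smc1b had 181, 178 and 183 CPM in p57 KO and 172, 166 and 158 CPM in control, with all p57 KO libraries higher. Its log2 fold change of 0.13 (SE 0.03, adjusted p = 0.00742 in edgeR) was not called without control replicate 3, the lowest library (0.09, adjusted p = 0.0726). Rec8 had 57.9 to 64.6 CPM in p57 KO and 57.1 to 60.7 CPM in control, with overlap and a log2 fold change of 0.05 (95% interval -0.05 to 0.15). The mitotic subunit genes Rad21, Smc1a, Stag1 and Stag2 were not called, with adjusted p from 0.078 to 0.896 in edgeR. The chromosome axis genes Hormad1 and Hormad2, whose proteins mark chromosomes that have not yet paired, had log2 fold changes of 0.05 and -0.06, with 95% intervals of -0.09 to 0.18 and -0.20 to 0.08.

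**Figure D4:**
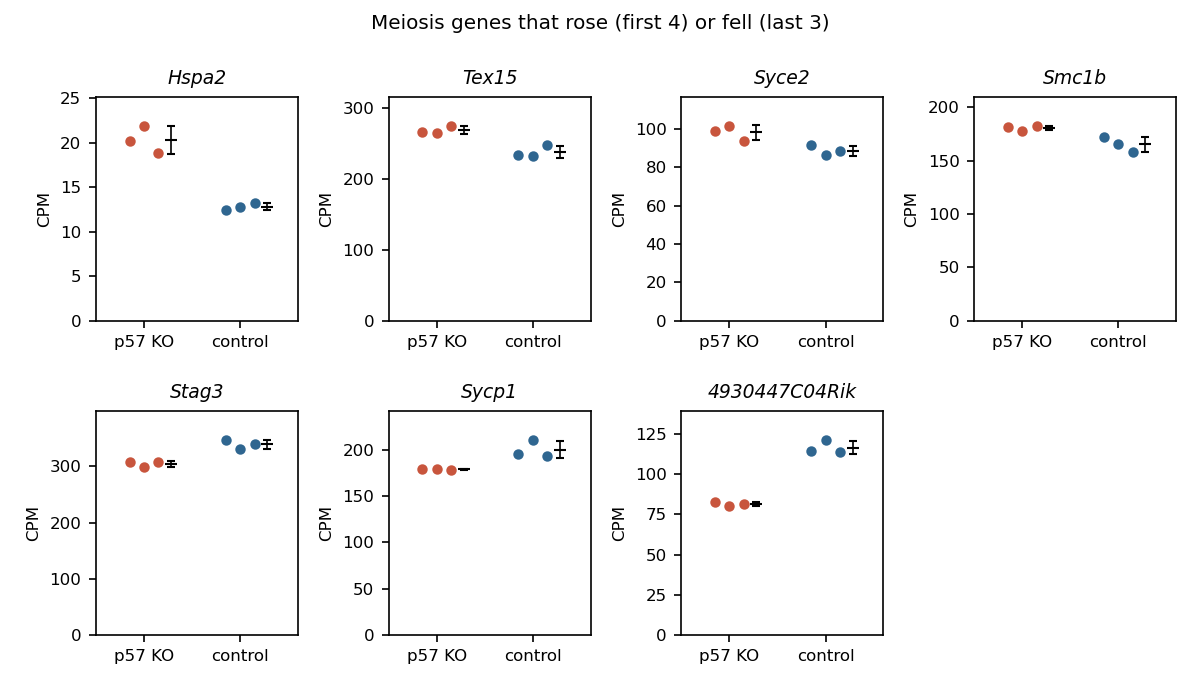
CPM of the 7 called genes in each library (points, p57 KO left of control) with the mean and SD of 3 libraries beside them, on axes that start at 0. The groups do not overlap in any panel, and the gap is wide for Hspa2 and 4930447C04Rik and narrow for the other 5 genes.

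Among strand exchange genes Tex15 rose and the other 5 were not called. Tex15 is required to load recombinases onto breaks and also takes part in silencing of transposons by piRNA in male germ cells. It had 267, 265 and 275 CPM in p57 KO, against 234, 232 and 248 CPM in control, without overlap. The fold change was 0.18 as log2 (SE 0.03, adjusted p = 0.000212 in edgeR). Dmc1 had 40.0, 41.9 and 40.0 CPM in p57 KO and 37.1, 41.2 and 36.3 CPM in control, with a log2 fold change of 0.09 (95% interval -0.03 to 0.21). Mnd1 and Psmc3ip encode partners that help DMC1 invade the homologue. Their log2 fold changes were 0.13 (95% interval -0.12 to 0.39) and -0.02 (-0.16 to 0.12), and Psmc3ip shares 385 exon bases with Mlx on the other strand. Meiob had 2.21, 2.62 and 3.75 CPM in p57 KO and 3.88, 4.12 and 2.88 CPM in control. With so few counts its log2 fold change of -0.34 had a 95% interval from -0.77 to 0.10. Spata22 had -0.02 (-0.48 to 0.45), and its counts are uncertain because Gm49340 on the same strand shares 1025 exon bases with it.

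No gene of the break, crossover, telomere or entry groups was called in edgeR, DESeq2 or limma-voom, and none of these 13 had an unadjusted p under 0.05 in edgeR. Spo11 had 4.99, 3.96 and 4.20 CPM in p57 KO and 5.34, 5.59 and 4.79 CPM in control, and the interval of its log2 fold change ran from -0.58 to 0.06. Msh4 and Hfm1, which act on crossover intermediates as a MutS homologue and a helicase, were lower in all p57 KO libraries without passing the test. Msh4 had 17.7, 15.2 and 16.1 CPM in p57 KO and 18.4, 18.2 and 17.8 CPM in control (log2 fold change -0.15, edgeR adjusted p = 0.187), and Hfm1 had 4.35, 3.10 and 4.20 CPM in p57 KO and 4.37, 4.53 and 5.31 CPM in control (-0.28, adjusted p = 0.246). Tex11, a crossover gene on the X chromosome, had 92.2, 106 and 100.4 CPM in p57 KO and 96.6, 96.2 and 92.9 CPM in control. Its log2 fold change of 0.06 was 0.11 without p57 KO replicate 1, where the adjusted p was 0.0409. Msh5 and Mlh3 had log2 fold changes of 0.03 (95% interval -0.14 to 0.21) and 0.02 (-0.10 to 0.14). For Terb1, Terb2 and Majin the intervals were -0.46 to 0.22, -0.10 to 0.33 and -0.31 to 0.71, and for Prdm9 and Mei1 they were -0.43 to 0.39 and -0.22 to 0.27.

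Meioc and Ythdc2 encode partner proteins that let germ cells leave the mitotic programme and enter meiosis. Meioc had 39.1, 41.6 and 38.8 CPM in p57 KO and 42.2, 40.5 and 39.0 CPM in control, and Ythdc2 had 34.1, 35.2 and 32.8 CPM in p57 KO and 35.1, 36.5 and 33.1 CPM in control. Both overlapped between groups, with 95% intervals of the log2 fold change of -0.14 to 0.09 and -0.16 to 0.09. Of the 27 genes that were not called, 14 had an interval that lay within a 1.2-fold change in either direction, and 26 had one within a 2-fold change, the exception being Ccna1. Among the 27, Sycp3 was the only gene with an unadjusted p under 0.05 in edgeR.

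A second list of 34 meiosis genes, written with earlier results of these data known, showed a similar mixture. Of its genes 33 were found in the table and 32 were tested; 3 rose, 3 fell and 26 were not called, beside 11.6% of all tested genes in each direction, and the median log2 fold change was -0.04. Mybl1, the gene of A-MYB, a transcription factor of pachytene spermatocytes, had 9.40, 6.94 and 8.12 CPM in p57 KO, against 4.79, 5.18 and 5.56 CPM in control (log2 fold change 0.65, SE 0.14, edgeR adjusted p = 0.00183). Ccnb1ip1, the gene of the crossover protein HEI10, rose by 0.39 (adjusted p = 0.000587), and Rad51ap2 by 1.16 (adjusted p = 0.0165) from few counts, 18 to 28 per library in p57 KO and 7 to 12 in control. DESeq2 did not call Rad51ap2 (adjusted p = 0.0964), nor did edgeR once control replicate 2 (0.0938) or p57 KO replicate 1 (0.0599) was left out. Slc25a31, the gene of a germ cell ADP/ATP carrier, Tcfl5, that of a spermatocyte transcription factor, and Stk31, that of a germ cell kinase, fell by 0.13, 0.14 and 0.10 as log2. Tcfl5 lost its call when any library other than p57 KO replicate 1 was left out, with adjusted p from 0.0628 to 0.101. Its log2 fold change was then -0.15 to -0.14, or -0.09 without p57 KO replicate 3, and it was -0.20 without p57 KO replicate 1, where the call was kept. Stk31 lost its call without control replicate 1 (0.115) or p57 KO replicate 2 (0.128) and in DESeq2 (0.0658). Stra8, which retinoic acid induces at the start of meiosis, had 24.6, 23.0 and 18.4 CPM in p57 KO and 18.5, 19.6 and 18.3 CPM in control, with overlap and a log2 fold change of 0.22 (SE 0.09, adjusted p = 0.0890 in edgeR). Gm4969, the gene of its partner MEIOSIN, had 3.64 to 4.87 CPM in p57 KO and 3.30 to 4.97 CPM in control.

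Of 14 genes that are known to hold meiosis genes down, 1 rose, 2 fell and 11 were not called in edgeR, beside 11.6% of all tested genes in each direction. Nanos2, an RNA-binding protein gene that keeps male germ cells out of meiosis, had 4.29, 2.80 and 3.30 CPM in p57 KO, against 7.58, 5.77 and 6.26 CPM in control, a log2 fold change of -0.92 (SE 0.17, adjusted p = 0.000477). E2f6, a repressor that recognises the core marked in the promoters, had 118, 116 and 113 CPM in p57 KO and 126, 125 and 128 CPM in control, a log2 fold change of -0.13 (SE 0.03, adjusted p = 0.00773). Dnmt3b, the gene of a DNA methyltransferase, rose by 0.14 (adjusted p = 0.0118), with 0.0653 without p57 KO replicate 2 and 0.0631 in DESeq2. The other members of the E2F6 and MGA complexes, Mga, Max, Pcgf6, L3mbtl2, Rnf2, Ring1, Rybp and Cbx3, were not called, and neither were Dnmt1, Uhrf1 and Setdb1. With the fibroblast marker score as a covariate, Nanos2 had -0.42 (adjusted p = 0.552) and E2f6 -0.06 (0.721).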

How the data were processed

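RNA of 3 p57 KO and 3 control libraries was read as single reads of 76 bases, per the labels. The authors deposited raw counts per gene, 1 column per library, without normalization. Build mm10 and the tools HTSeq 2.0.2, HISAT2 2.2.1, cutadapt 3.4 and bcl2fastq 2.20 are listed in the submitters' processing notes. Annotation, strand setting and handling of multiply mapped reads were not stated in the sources used here, so counts are uncertain wherever exons of opposite strands overlap.

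Genes were filtered with filterByExpr (14814 of the 23200 with a count, all 34 meiosis genes among them), scaled by TMM and tested with edgeR 4.0.16 (quasi-likelihood F-test, group only, robust; R 4.3.3), with Benjamini-Hochberg adjustment over all tested genes and a threshold of 0.05. The SE is the log2 fold change over the square root of F, and intervals use t quantiles. The common coefficient of variation was 4.35%. Alternatives were DESeq2 1.42.0, limma-voom (limma 3.58.1), RLE factors, 2 other filters, a test against a 1.2-fold change, the replicate number as a block, left-out libraries and a fibroblast marker covariate. Replicate pairs differed by more than sampling noise (chi-square per degree of freedom 1.73 to 2.19 in control, 3.02 to 6.42 in p57 KO, over genes with a mean of at least 20 counts). Positions and exon lengths come from GENCODE M21 (same build; 32235 of 32285 identifiers found).

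The meiosis genes, the lists and the tests were chosen with earlier results of these data known. The text names all 34 meiosis genes, Cdkn1c, the called genes of the other meiosis and repressor lists (up to 6 of smallest p in each direction), mitotic counterparts of some of them (others are not reported here) and, of the marker lists, up to 3 with the highest level and defining markers at 0. Prm1, Prm2, Adam2 and Pgk2 were named as defining markers near 0. Stra8, Gm4969, Rec114, Ankrd31, Ccdc36, Gm960, Mei4 and the uncalled genes of the repressor list were named outside that rule after their values were seen. Of the 34 genes of the other meiosis list, Speedya was not matched.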

Additional observations from a re-analysis of the deposited data

How the results depend on the processing

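Direction and call of the 34 genes were as reported with RLE factors, DESeq2, limma-voom and no filter on low counts. With the filter of at least 1 CPM in 3 libraries, Ccna1 was not tested and Sycp3 rose as well (adjusted p = 0.0469). Against a 1.2-fold change 1 meiosis gene rose and 1 fell, and of the other meiosis list 1 rose (Mybl1) and 0 fell (0 at an unadjusted p under 0.05; DESeq2 without a fold limit called 2); over all genes 469 were then called, against 3450. With the fibroblast marker score as a covariate 1 meiosis gene rose and 2 fell, 0 of the other list fell (2 at an unadjusted p under 0.05), and 431 genes were called; log2 fold changes that turned sign then were those of Sycp2 (0.012), Tex11 (-0.051), Mei1 (-0.070), Mlh3 (-0.024), Terb1 (0.21), Spata22 (0.14) and Tcfl5 (0.025). Leaving out 1 library, 3 to 6 meiosis genes rose and 3 fell, and 2 to 4 of the other list rose and 1 to 3 fell. Log2 fold changes that then crossed 0 ranged from -0.20 to 0.14 for Prdm9, -0.11 to 0.093 for Mei1, -0.015 to 0.047 for Mlh3, -0.0032 to 0.071 for Msh5, -0.13 to 0.13 for Spata22 and -0.066 to 0.021 for Psmc3ip. Of the genes that turned sign, Tcfl5 was the only one called in the fit of all libraries. The cause of these shifts was not tested.

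Whether the shared replicate numbers pair the libraries could not be settled. Deviations from the group means correlated by 0.18, 0.02 and -0.10 between same-numbered libraries over tested genes. Control replicate 2 correlated best with p57 KO replicate 3 (0.27). With 3 libraries per group the deviations cancel out within a group, so these correlations depend on one another and cannot decide the question. With the replicate number as a block 4 meiosis genes rose and 3 fell, the same 7 genes, 4 and 3 of the other list were called, and 3706 genes were called in all. Depth limits genes of a few CPM such as Ccna1, Majin, Spata22, Prdm9 and Meiob, whose SE were 0.20 to 0.39.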
